A study of Mus musculus with 3 samples.

Results

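The BCL2 family decides at the outer mitochondrial membrane whether a cell survives or starts apoptosis, and 10 of its genes were followed here among the 27998 genes of 3 single-cell libraries of mouse bone marrow. The members were taken as listed, without regard to their values: the survival genes Bcl2, Bcl2l1, Mcl1 and Bcl2a1b, the effectors Bax and Bak1, and the BH3-only genes Bcl2l11, Bid, Bbc3 and Pmaip1. All 10 were in the gene list of each library. The cells were lineage-negative (Lin-) and c-kit+ marrow cells of C57BL/6 mice, with dead cells gated out by DAPI, so cells that had already died were not sampled. A wild-type mouse gave the control cells. A second mouse gave both other libraries, non_mCherry from its reporter-negative and mCherry from its reporter-positive cells. It carried Mx1-Cre and a heterozygous Runx1-Runx1t1 knock-in, the fusion called AML1-ETO in human leukemia, followed by mCherry, and poly(I:C) switches both on. Mx1-Cre responds to interferon and is not confined to blood cells. The labels give no age, and poly(I:C) treatment of the wild-type mouse is not stated. Each group was thus 1 library from 1 mouse, no difference below has a replicate check, no test was made, and every 95% interval covers counting error only.

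As background, survival members hold effectors and BH3-only proteins in check by binding their BH3 helix. BH3-only proteins are made or released under stress and occupy the survival members, and freed BAX and BAK then open the mitochondrial membrane and let out cytochrome c. Stem and progenitor cells of the marrow are known to need MCL1, erythroid and platelet cells to need BCL-XL (from Bcl2l1), and mature lymphocytes to need BCL2. What was measured is RNA, and protein level and binding were not.

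After filtering, control held 8857 cells with 143339512 unique molecular identifiers (UMIs, each marking 1 captured RNA molecule), non_mCherry 7850 cells with 86852479, and mCherry 10150 cells with 92048702. Median UMIs per cell were 15416, 9241.5 and 8173.5, and kept barcodes shared between libraries numbered 16 to 36 a pair. Runx1t1 stood at 0.216 counts per 1000000 UMIs (CPM) in control, 0.311 in non_mCherry and 8.47 in mCherry, and Kit, which encodes the sort marker c-kit, at 66.8, 56.6 and 269 CPM. Despite the lineage gate, 2026 non_mCherry cells (25.8%) carried B cell progenitor markers. The mCherry library also stood apart in general state. All 7 genes of an immediate early list (genes switched on within minutes of a stimulus) were at least 2-fold higher than in control, with a summed level of 14447 CPM against 1980 in control and 2164 in non_mCherry, and all 6 genes of an S phase list were at least 2-fold lower.

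In the mCherry cells, members of the survival role differed in opposite directions, and so did members of the BH3-only role. Among survival genes Bcl2 was 9.24-fold lower than in control while Mcl1 and Bcl2l1 were 2.71-fold and 3.85-fold higher, and among BH3-only genes Pmaip1 was 11.7-fold lower while Bcl2l11 and Bbc3 were 5.11-fold and 2.22-fold higher. Both effectors were lower, Bax by 2.09-fold. Counting a gene as different when its CPM (plus 1) differed at least 2-fold and reached 5 CPM in 1 of the 2 libraries, 9 of the 10 members could be counted. Of these, 4 were higher (Bcl2l1, Mcl1, Bcl2l11 and Bbc3) and 3 lower (Bcl2, Bax and Pmaip1) in mCherry than in control, where 18.3% of all 9845 countable genes were higher and 11.1% lower. The same 4 and 3 members passed against non_mCherry, the other sort fraction of the same mouse, beside 17.4% and 10.6% of 9890 genes. Between non_mCherry and control no member passed in either direction, beside 1.86% and 0.416% of 9142 genes. The median log2 ratio over all 10 members was -0.28 against control and -0.21 against non_mCherry. Over the 9 countable members it was -0.12 and 0.0022, beside 0.17 and 0.18 over all countable genes. Scaling by the median of gene ratios in place of the library total moves every log2 ratio of mCherry to control down by 0.19 and to non_mCherry by 0.18. The split of all genes is then 1352 higher and 1491 lower in place of 1806 and 1092 against control. Under that scaling Bbc3 was the member no longer past 2-fold (log2 ratio 0.88 against control and 0.84 against non_mCherry), and no member past 2-fold changed direction.

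**Figure D1:**
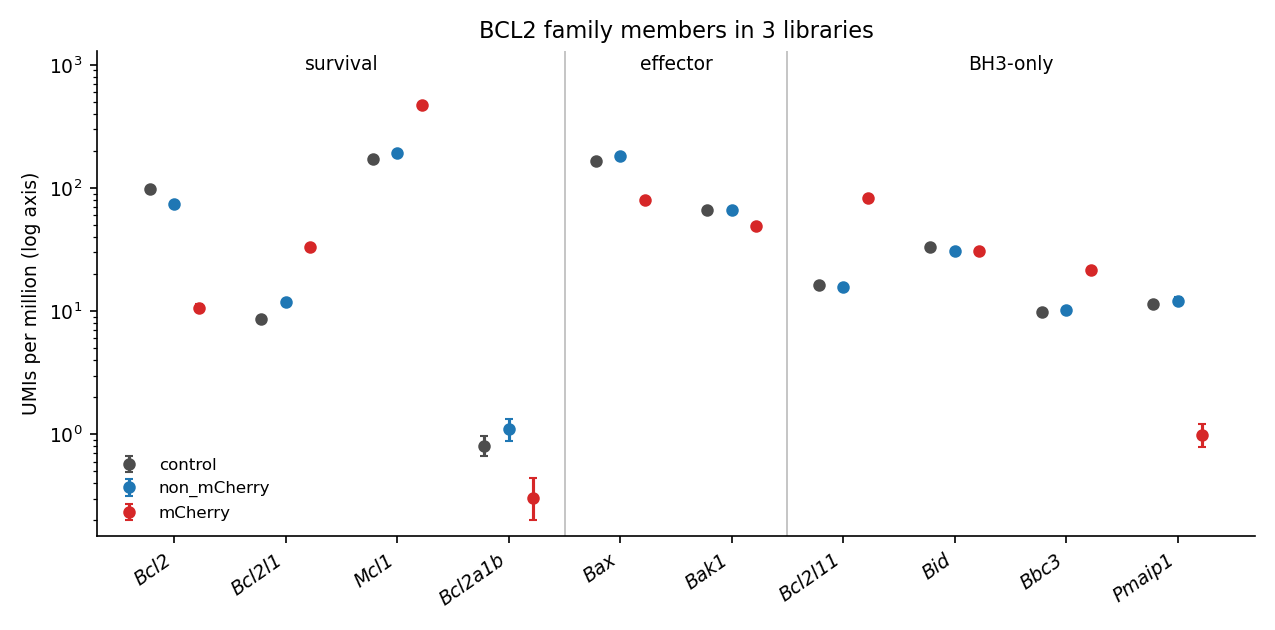
Level of each of the 10 members in the 3 libraries (CPM over all kept cells, log axis), with bars for exact 95% Poisson intervals, 1 library per group. Bcl2, Bax and Pmaip1 stood lowest in mCherry and Bcl2l1, Mcl1, Bcl2l11 and Bbc3 highest, while control and non_mCherry lay close to each other.

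Bcl2, the founding survival gene (chr1:106538178-106714274 of mm10, minus strand), stood at 98.8 CPM in control (95% interval 97.2 to 100.4), 73.7 CPM in non_mCherry (71.9 to 75.5) and 10.7 CPM in mCherry (10.03 to 11.4). The mCherry library was low and the others high, by 9.24-fold (8.66 to 9.87) against control and 6.89-fold (6.44 to 7.38) against non_mCherry. The gap between non_mCherry and control was 1.34-fold (1.30 to 1.38). Without the B cell progenitors, in which Bcl2 was at 7.79 CPM, non_mCherry stood at 84.3 CPM. An antisense gene in the gene list, D630008O14Rik, overlaps Bcl2, and whether the counting used the strand is not given in the sources used here.

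Bcl2l1, which makes BCL-XL (chr2:152780668-152831728, minus strand), went the other way, at 8.65, 11.8 and 33.3 CPM (control, non_mCherry, mCherry). It was 3.85-fold higher in mCherry than in control (3.60 to 4.12) and 2.83-fold higher than in non_mCherry (2.64 to 3.05). B cell progenitors held 36.3 CPM, and without them non_mCherry was at 7.80 CPM, below control. Mcl1, a survival gene whose RNA and protein turn over fast (chr3:95658788-95663176, plus strand), was the most abundant member in all 3 libraries, at 172, 194 and 468 CPM. Its rank among all genes by level was 831 in control, 710 in non_mCherry and 238 in mCherry. It was 2.71-fold higher in mCherry than in control (2.67 to 2.76) and 2.41-fold higher than in non_mCherry (2.37 to 2.46).

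Bcl2a1b, 1 of several near-identical copies of the survival gene for A1 on chromosome 9, was scarce, with 115 UMIs in control (0.802 CPM), 95 in non_mCherry (1.09 CPM) and 28 in mCherry (0.304 CPM). No 2-fold call was made for it because all 3 values lay under 5 CPM. Its coding sequence of 516 bases had 98.8% identity with Bcl2a1d and 97.9% with Bcl2a1a in the GENCODE transcripts, and 31.1% of the 100-base stretches of its transcript occurred unchanged in another of the 3 copies. Reads from the copies can therefore be confused. A protein-coding gene in the gene list, Gm29094, also overlaps Bcl2a1b on the same strand. How reads shared between genes were counted is not given in the sources used here. Whether the low counts of Bcl2a1b come in part from this was not tested. The stretch below, coding bases 1 to 60 on each gene's own strand, is shown because it holds 6 of the positions at which the copies can be told apart, in capitals.
Bcl2a1b: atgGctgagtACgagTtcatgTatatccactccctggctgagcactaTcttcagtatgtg
Bcl2a1a: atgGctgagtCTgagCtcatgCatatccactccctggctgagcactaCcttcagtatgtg
Bcl2a1d: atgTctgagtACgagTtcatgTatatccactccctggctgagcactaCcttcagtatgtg
Bcl2a1a and Bcl2a1d were as scarce, at 0.105 and 0.356 CPM in control and 0.098 and 0.152 CPM in mCherry.

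Of the effectors, which form the membrane pore, Bax (chr7:45461697-45466898, minus strand) stood at 166, 182 and 79.5 CPM (control, non_mCherry, mCherry). It was 2.09-fold lower in mCherry than in control (2.04 to 2.15) and 2.29-fold lower than in non_mCherry (2.22 to 2.35). Bak1, its relative that sits in the membrane already in healthy cells, was at 66.5, 65.7 and 48.7 CPM. It was lower in mCherry by 1.37-fold and 1.35-fold, short of the 2-fold line, and control and non_mCherry were level within counting error (ratio 0.988, 0.956 to 1.02). Ggnbp1, a protein-coding gene in the gene list, overlaps Bak1 on the opposite strand, so the open question of strand holds for Bak1 too.

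Among the BH3-only genes, Bcl2l11, which makes BIM, the main killer of blood cells deprived of cytokines (chr2:128126038-128162547, plus strand), stood at 16.3 CPM in control (15.6 to 16.9), 15.7 CPM in non_mCherry (14.9 to 16.6) and 83.1 CPM in mCherry (81.3 to 85.0). The intervals of control and non_mCherry overlapped, and mCherry lay 5.29-fold above non_mCherry (4.99 to 5.61). Bbc3, which makes PUMA, a p53 target (chr7:16308393-16318205, plus strand), was at 9.80, 10.2 and 21.7 CPM, again with overlapping intervals in control and non_mCherry, and 2.22-fold higher in mCherry than in control (2.07 to 2.37). Pmaip1, which makes NOXA, a binder of MCL1 and also a p53 target, had 1640 UMIs in control (11.4 CPM), 1059 in non_mCherry (12.2 CPM) and 90 in mCherry (0.978 CPM). Its mCherry level was 11.7-fold below control (9.46 to 14.6) and 12.5-fold below non_mCherry (10.05 to 15.6). Bbc3 and Pmaip1, both p53 targets, thus differed in opposite directions, while Trp53 itself, the p53 gene, was at 202, 198 and 192 CPM. Bid, which caspase-8 cleaves to link death receptors to mitochondria, was nearly level at 33.4, 30.5 and 30.6 CPM. Its counts cannot be told apart from those of Bcl2l13 on the opposite strand where the 2 genes overlap, if strand was not used.

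Sequence before the transcription start was read for 14 windows of 9 members in RefSeq's promoter table of GRCm38.p6, each from 250 bases before to 50 after a start. The windows were searched on both strands for TGTGGT (RUNX, the family the fusion belongs to), TGTTTAC (FOXO) and TTCNNNGAA (STAT), motifs of factors known to regulate family members, and these motifs do not overlap one another in the matches given. The RUNX word was in 1 of the 14 windows (Bak1), beside 16.8% of all 32851 windows of that length. The FOXO word was in 2 of 14, a window of Bcl2l11 and a window of Bbc3, beside 3.65% of all windows. The STAT word was in 0 of 14, beside 8.30%. G and C made up a median of 52.7% of bases over all windows. They made up 71% and 74.7% in the 2 windows with a FOXO match, and 46.7% (Bcl2a1b) to 78% (Bbc3) over the 14. The shares over all windows are thus not matched for base makeup. In addition, 2 of the Bbc3 windows overlap each other. The 250 bases before the start are shown for the 2 windows with a FOXO match and for Bcl2, which had none of the 3 words. Mcl1 and all windows of Bcl2l1, both higher in mCherry, had none of the 3 words either. Nor had the other windows of Bcl2l11 and Bbc3. Bcl2l11 and Bbc3 were themselves higher in mCherry, and whether the words bear on any difference was not tested. Capitals mark the FOXO match, which begins 227 bases before the Bcl2l11 start and 167 bases before the Bbc3 start, each line reads 5′ to 3′ on the gene's strand, and the Bbc3 window lies inside the gene, between exons of its longer transcripts.
Bcl2l11, chr2:128125788-128126037, plus strand: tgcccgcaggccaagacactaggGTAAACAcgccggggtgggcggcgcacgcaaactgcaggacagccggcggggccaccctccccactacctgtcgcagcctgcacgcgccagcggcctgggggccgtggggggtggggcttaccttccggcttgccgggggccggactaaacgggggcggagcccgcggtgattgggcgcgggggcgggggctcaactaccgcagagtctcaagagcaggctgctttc
Bbc3, chr7:16310011-16310260, plus strand: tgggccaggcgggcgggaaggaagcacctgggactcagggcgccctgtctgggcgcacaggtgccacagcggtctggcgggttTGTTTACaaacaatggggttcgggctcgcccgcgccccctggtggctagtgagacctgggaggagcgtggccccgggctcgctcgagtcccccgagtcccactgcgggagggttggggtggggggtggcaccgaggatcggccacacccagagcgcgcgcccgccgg
Bcl2, chr1:106714291-106714540, minus strand: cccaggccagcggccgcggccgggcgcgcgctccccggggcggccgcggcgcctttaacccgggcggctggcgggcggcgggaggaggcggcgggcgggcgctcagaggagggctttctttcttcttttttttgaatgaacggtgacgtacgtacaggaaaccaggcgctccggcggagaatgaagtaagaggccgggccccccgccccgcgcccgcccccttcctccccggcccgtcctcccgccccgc
A match of letters is a description of the sequence only, and binding was not measured.

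**Figure D2:**
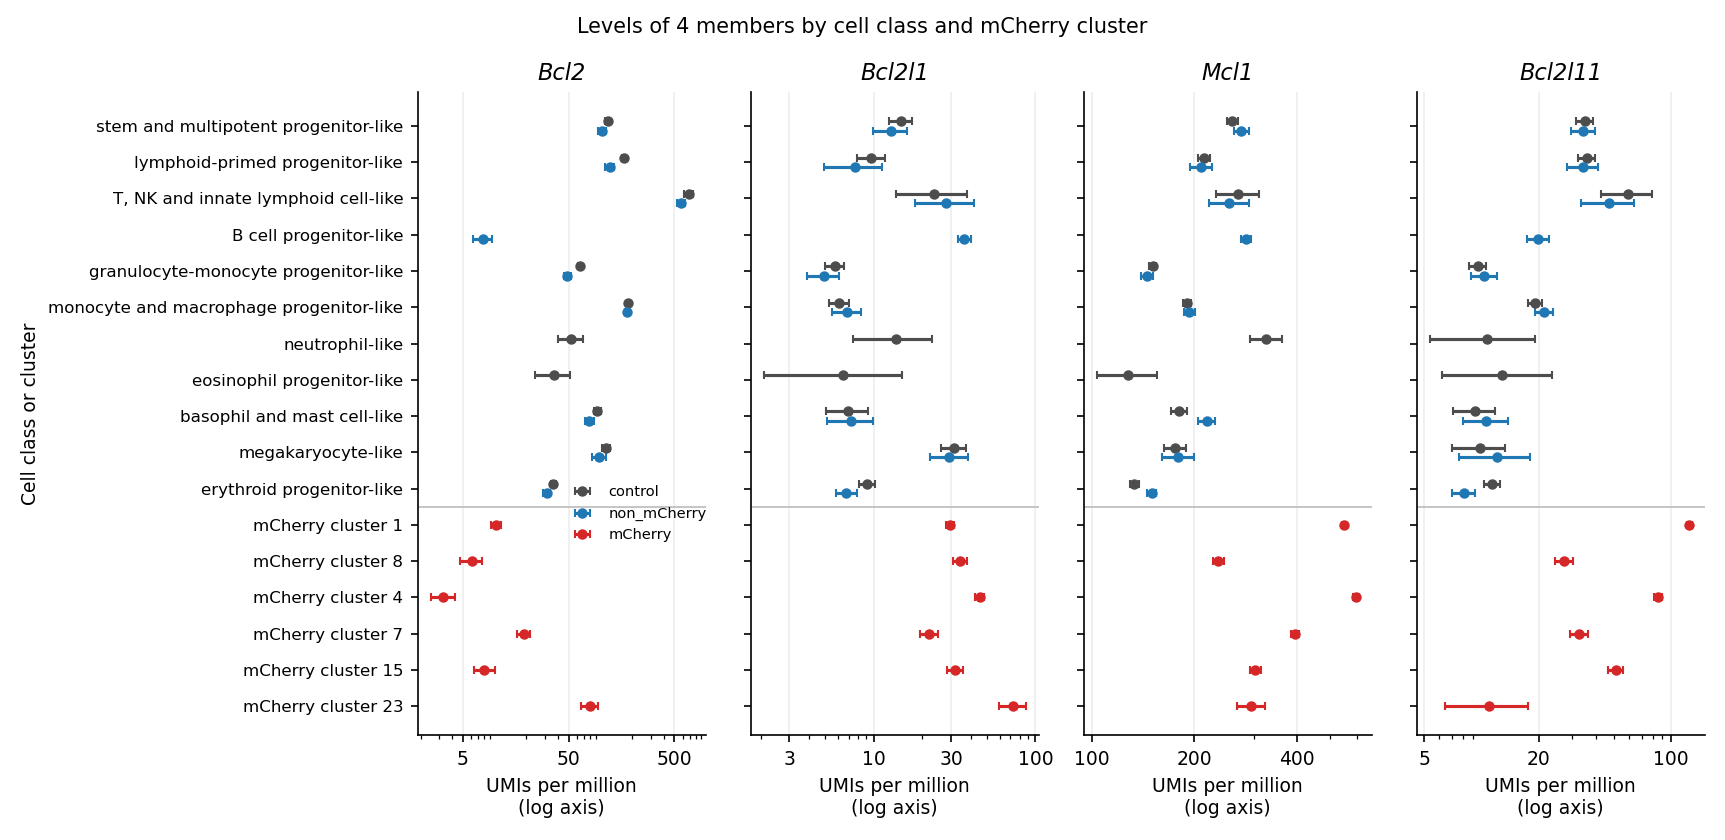
Levels of Bcl2, Bcl2l1, Mcl1 and Bcl2l11 (CPM, log axes) in each marker-named class of control and non_mCherry and in each mCherry cluster, with bars for exact 95% Poisson intervals. Bcl2 was highest in T, NK and innate lymphoid cells and low in B cell progenitors and in all mCherry clusters but cluster 23, and Bcl2l11 was highest in mCherry clusters 1 and 4.

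The levels also differed by lineage. Cells were clustered over the 3 libraries without the 52 family and pathway genes, and clusters were named from marker lists, so the members did not help define the classes. In control, Bcl2 ranged 19.03-fold over 10 classes. T, NK and innate lymphoid-like cells (137 control and 201 non_mCherry cells) had 679 CPM in control and 581 in non_mCherry. Next came monocyte and macrophage progenitor-like cells, at 183 and 178 CPM, and lymphoid-primed progenitor-like cells, at 166 and 122 CPM. Stem and multipotent progenitor-like cells followed at 118 and 103 CPM, and megakaryocyte-like cells at 114 and 96.7 CPM. Granulocyte-monocyte progenitor-like cells held 64.2 and 48.7 CPM and erythroid progenitor-like cells 35.7 and 31.0 CPM. In non_mCherry, where B cell progenitor-like cells were numerous enough to measure, these were lowest. Bcl2 was lower in non_mCherry than in control in 8 of the 8 classes they shared. The log2 ratios ran from -0.44 to -0.04, and no difference was 2-fold. In megakaryocyte-like and in monocyte and macrophage progenitor-like cells the interval of the ratio included no difference. All 8 classes came from the same pair of libraries, so they are not separate checks. How many other genes were lower in all 8 was not counted. Some non_mCherry cells of the stem-like and the basophil and mast cell-like classes lay in mCherry clusters with low Bcl2.

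Bcl2l1 was highest in control in megakaryocyte-like cells (31.3 CPM, against 5.72 CPM in granulocyte-monocyte progenitor-like cells), a lineage known to need BCL-XL. Erythroid progenitor-like cells, the other such lineage, held only 9.09 CPM in control and 6.78 CPM in non_mCherry. In non_mCherry, B cell progenitor-like cells (36.3 CPM) stood above megakaryocyte-like cells (29.3 CPM). Mcl1 spread less, 2.56-fold over the 10 control classes, from 128 CPM in eosinophil progenitor-like cells (62 cells) to 326 CPM in neutrophil-like cells (140 cells). Bcl2a1b had its highest level in T, NK and innate lymphoid-like cells, 22.0 CPM in control against 2.92 CPM in the next class, and 64.5 CPM in non_mCherry. These cells held 16 of its 115 UMIs in control and 55 of its 95 in non_mCherry. Bax varied 1.73-fold over the control classes and was highest in erythroid progenitor-like cells (183 CPM). Bak1 was highest in granulocyte-monocyte progenitor-like cells, at 77.9 CPM in control and 81.9 CPM in non_mCherry. Bid was highest in monocyte and macrophage progenitor-like cells (51.7 and 49.6 CPM), and so was Pmaip1 (22.0 and 27.2 CPM). Bbc3 reached 15.2 CPM in erythroid progenitor-like cells of both libraries. Bcl2l11 was at 59.3 and 46.9 CPM in T, NK and innate lymphoid-like cells, 36.0 and 34.4 CPM in lymphoid-primed progenitor-like cells and 35.1 and 34.5 CPM in stem and multipotent progenitor-like cells, and at 9.19 CPM in control basophil and mast cell-like cells. Bcl2 and Bcl2l11 were thus both highest in the same lymphoid class.

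Nearly all mCherry cells (99.5%) fell into 6 clusters with almost no control cells, so a class match was available for 2 classes only, and in both of them the name covered different clusters in different libraries. The stem and multipotent progenitor-like cells were 995 control cells of cluster 5, 624 non_mCherry cells (557 of cluster 5, 47 of cluster 1 and 20 of cluster 8) and 5751 mCherry cells, of which 4354 were in cluster 1 and 1395 in cluster 8. Clusters 1 and 8 were led by the stem cell gene Hlf together with the mast cell gene Cpa3, so the match is loose. Within it, Bcl2 stood at 118, 103 and 9.39 CPM (control, non_mCherry, mCherry), 12.5-fold lower in mCherry than in control (11.3 to 13.9). Pmaip1 was at 6.82, 13.1 and 1.10 CPM. Bcl2l11 was at 35.1, 34.5 and 102 CPM, which is 2.91-fold above control (2.62 to 3.24), against 5.11-fold over all cells. Mcl1 was at 259, 275 and 478 CPM, 1.85-fold above control, and Bcl2l1 at 14.7, 12.7 and 30.8 CPM, 2.10-fold above. Bax was 1.72-fold lower than in control, and Bbc3 was 1.80-fold higher. Bak1, at 46.8, 52.8 and 47.0 CPM, did not keep its lower level of the whole library, and Bid was 1.53-fold higher (22.0, 23.9 and 33.5 CPM). In this class 2 members passed 2-fold higher against control (Bcl2l1 and Bcl2l11) and 2 lower (Bcl2 and Pmaip1), beside 9.78% and 7.6% of 9814 genes. Against non_mCherry 3 passed higher (those 2 and Bbc3) and 2 lower, beside 10.4% and 5.73% of 9744 genes.

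The other shared class, basophil and mast cell-like cells, held 581 control and 617 non_mCherry cells, nearly all of clusters 10 and 24, and 4176 mCherry cells of clusters 4, 7 and 15. Cluster 10 was led by the basophil genes Prss34 and Mcpt8. Clusters 4 and 15 had only Cpa3 of the class markers among their leading genes, and cluster 15 also had Hlf there. This match is therefore loose too. Here Bcl2l11 stood at 9.19, 10.6 and 61.7 CPM (control, non_mCherry, mCherry), 6.71-fold above control (5.21 to 8.80), so its excess was smaller than over all cells in the stem-like class but not in this one. Bcl2l1 was 5.08-fold above control (6.93, 7.26 and 35.2 CPM) and Mcl1 2.58-fold (181, 218 and 466 CPM). Bcl2 was at 93.3, 78.5 and 8.93 CPM, 10.4-fold below control (9.14 to 11.9), and Pmaip1 at 17.3, 26.6 and 0.749 CPM, 23.1-fold below (15.3 to 36.1). Bax was 1.72-fold lower and Bbc3 1.79-fold higher than in control, as in the stem-like class, while Bak1 (52.4, 41.5 and 49.9 CPM) and Bid (23.5, 17.3 and 27.1 CPM) differed from control by less than their counting error.

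The 6 mCherry clusters did not have 1 shared pattern. Clusters 1 (4354 cells) and 4 (2026 cells) combined the highest Mcl1, at 552 and 597 CPM, with the highest Bcl2l11, at 125 and 85.3 CPM. Cluster 8 (1395 cells), which carries the same stem-like name as cluster 1, had 235 CPM of Mcl1 and 27.4 CPM of Bcl2l11, near or below the 259 and 35.1 CPM of control stem-like cells. Bcl2 was low in both, at 10.3 CPM in cluster 1 and 6.06 CPM in cluster 8, and lowest in cluster 4 at 3.29 CPM. Cluster 7 (1502 cells), led by the mast cell gene Cma1, had 18.9 CPM of Bcl2 and the lowest Bcl2l1 of the 6, at 22.1 CPM. Cluster 15 (648 cells) had 8.02 CPM of Bcl2, 303 CPM of Mcl1 and 51.1 CPM of Bcl2l11. Cluster 23 (176 cells), unnamed and with the platelet gene Treml1 among its leading genes, was the exception to low Bcl2 and low Bax, with 79.3 and 147 CPM. It also had the highest Bcl2l1, at 72.2 CPM, and the lowest Bcl2l11, at 11.0 CPM. Pmaip1 was at 0.084 to 1.40 CPM in clusters 1, 4, 7, 8 and 15 and had no UMI in cluster 23.

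Shares of cells were compared after thinning each cell to 4000 UMIs, because deeper cells show more genes, with 295, 1095 and 337 shallower cells of control, non_mCherry and mCherry left out. At that depth a Bcl2 UMI was found in 30.05% of control cells (29.08 to 31.03), 22.2% of non_mCherry cells (21.2 to 23.2) and 3.88% of mCherry cells (3.51 to 4.28). Before thinning, the shares were 61.0%, 38.4% and 8.10%. For scale, 2.29% of the 1267 deep enough B cell progenitor-like cells of non_mCherry had a Bcl2 UMI and 89.1% of control T, NK and innate lymphoid-like cells did, so the mCherry share is near the lowest class, and cluster 4, at 1.26%, is below it. No class is known to lack Bcl2, so part of the lowest shares may be free RNA. That was not tested.

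For Mcl1 the shares at 4000 UMIs were 50.2%, 52.8% and 78.2%, and for Bcl2l1 3.68%, 5.06% and 11.7%. Bcl2l11 was found in 6.49% (control), 6.08% (non_mCherry) and 23.8% (mCherry), and Bbc3 in 3.92%, 4.23% and 8.58%. The wider spread of Bcl2l11 was uneven among mCherry cells, at 34.3% in cluster 1, 24.4% in cluster 4 and 8.96% in cluster 8. Bax was found in 46.0%, 48.4% and 26.3%, Bak1 in 21.4%, 20.4% and 16.9%, and Bid in 11.9%, 9.61% and 11.4%. Pmaip1 was found in 4.29%, 4.50% and 0.377% (37 of 9813 mCherry cells, 0.266% to 0.519%), and Bcl2a1b in under 1% of each library. The order of control and non_mCherry changed with depth for several members, whereas the place of mCherry changed for Bid only. In mCherry 19.9% of cells held a UMI of both Mcl1 and Bcl2l11, against 3.43% in control and 3.79% in non_mCherry. The product of the separate shares would be 18.6%, 3.26% and 3.21%. Cells with Bcl2l11 but no Bcl2 UMI made up 23.0% of mCherry, 3.82% of control and 4.46% of non_mCherry.

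The balance of the family was taken as the ratio of survival to death UMIs, which does not depend on the library total. UMIs count molecules without regard to gene length, but genes can differ in how well they are captured, and the sum gives each molecule equal weight whatever its protein does. The 4 survival genes summed to 281, 280 and 512 CPM (control, non_mCherry, mCherry), and the 6 death genes to 304, 316 and 265 CPM. The ratio was 0.924 in control (0.912 to 0.937), 0.887 in non_mCherry (0.871 to 0.902) and 1.94 in mCherry (1.91 to 1.97). Mcl1 carried this. Without it the order turned round, to 0.356, 0.274 and 0.167. With each member scaled to its mean over the libraries the 3 ratios were 0.652, 0.679 and 0.668. That scaling gives the scarce Bcl2a1b the same weight as Mcl1. With 4 survival and 6 death genes it also centres the ratio near 4 to 6, so only the spread among the 3 libraries can be read. The makeup of the survival and BH3-only roles differed more. Bcl2 supplied 35.2% of survival UMIs in control, 26.3% in non_mCherry and 2.09% in mCherry, and Mcl1 61.4%, 69.1% and 91.4%. Bcl2l11 supplied 22.9%, 22.9% and 60.9% of BH3-only UMIs, while the effectors together went from 233 and 248 CPM to 128 CPM. There were 6.07 Bcl2 UMIs per Bcl2l11 UMI in control, 4.69 in non_mCherry and 0.129 in mCherry. Among classes the ratio of survival to death was highest in T, NK and innate lymphoid-like cells, at 3.74 in control and 2.81 in non_mCherry, and was 0.594 and 0.609 in erythroid progenitor-like cells. It was 1.53, 1.41 and 1.81 (control, non_mCherry, mCherry) in stem and multipotent progenitor-like cells, a narrower gap than over all cells, and 1.13, 1.25 and 2.15 in basophil and mast cell-like cells. Over the mCherry clusters it ran from 1.23 in cluster 8 to 2.36 in cluster 4.

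**Figure D3:**
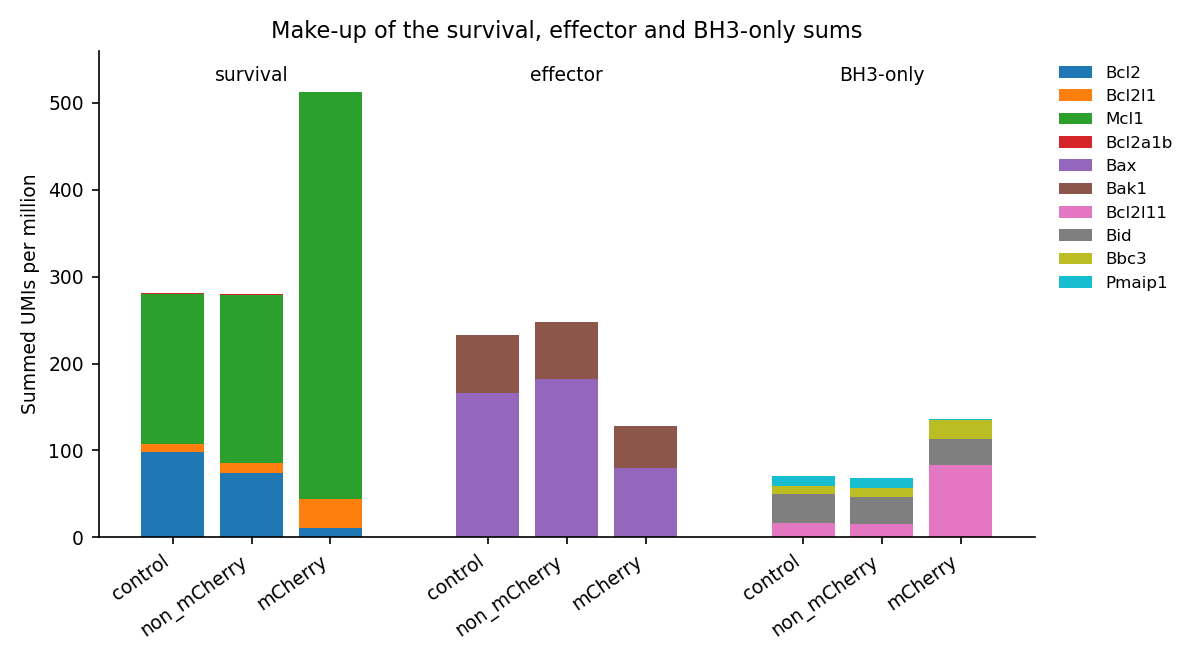
Makeup of the family in each library, as stacked bars of summed CPM (vertical axis) for the survival, effector and BH3-only genes, split by member. Survival genes summed to 281, 280 and 512 CPM (control, non_mCherry, mCherry), and in mCherry nearly all of that was Mcl1, while Bcl2l11 took the largest part of the BH3-only sum.

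Between mCherry clusters 1, 4 and 8 the immediate early genes differed in step with some members more than others. Their summed level was 15948 CPM in cluster 1 and 21062 CPM in cluster 4, where Mcl1 and Bcl2l11 were highest, and 2315 CPM in cluster 8, against 2596 CPM in control cluster 5. Cells in which the list summed to at most 2000 CPM were therefore compared on their own, a limit chosen after seeing the data. They were 4963 control cells (56.0%), 4681 non_mCherry cells (59.6%) and 1396 mCherry cells (13.8%), of which 925 were in cluster 8. In these cells Mcl1 was at 148, 170 and 195 CPM, 1.32-fold above control and 1.15-fold above non_mCherry, and Bcl2l11 at 13.2, 15.6 and 20.1 CPM, 1.53-fold and 1.29-fold above. Bcl2 stayed low in mCherry, at 88.3, 67.7 and 11.7 CPM, as did Bax, at 175, 193 and 83.9 CPM, and Pmaip1, at 9.64 and 11.0 CPM and 1 UMI. Bcl2l1, at 7.21, 11.1 and 30.4 CPM, and Bbc3, at 7.89, 7.49 and 18.2 CPM, stayed high. So of 9 countable members 2 passed 2-fold higher (Bcl2l1 and Bbc3) and 3 lower (Bcl2, Bax and Pmaip1) against either library, beside 22.6% and 9.03% of 9909 genes against control and 22% and 9.01% of 9963 genes against non_mCherry. The count of higher members was thus near the share of all genes.

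Above the limit, Mcl1 was 1.47-fold higher than below it in control, 1.46-fold in non_mCherry and 2.62-fold in mCherry. For Bcl2l11 these ratios were 1.67, 1.03 and 4.61, and for Bcl2 they were 1.34, 1.28 and 0.901. The low and high cells differ in cluster as well as in immediate early level, so the 2 cannot be told apart here. The survival to death ratio in the low cells was 0.776, 0.744 and 1.11, and above the limit 1.23, 1.27 and 2.04.

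**Figure D4:**
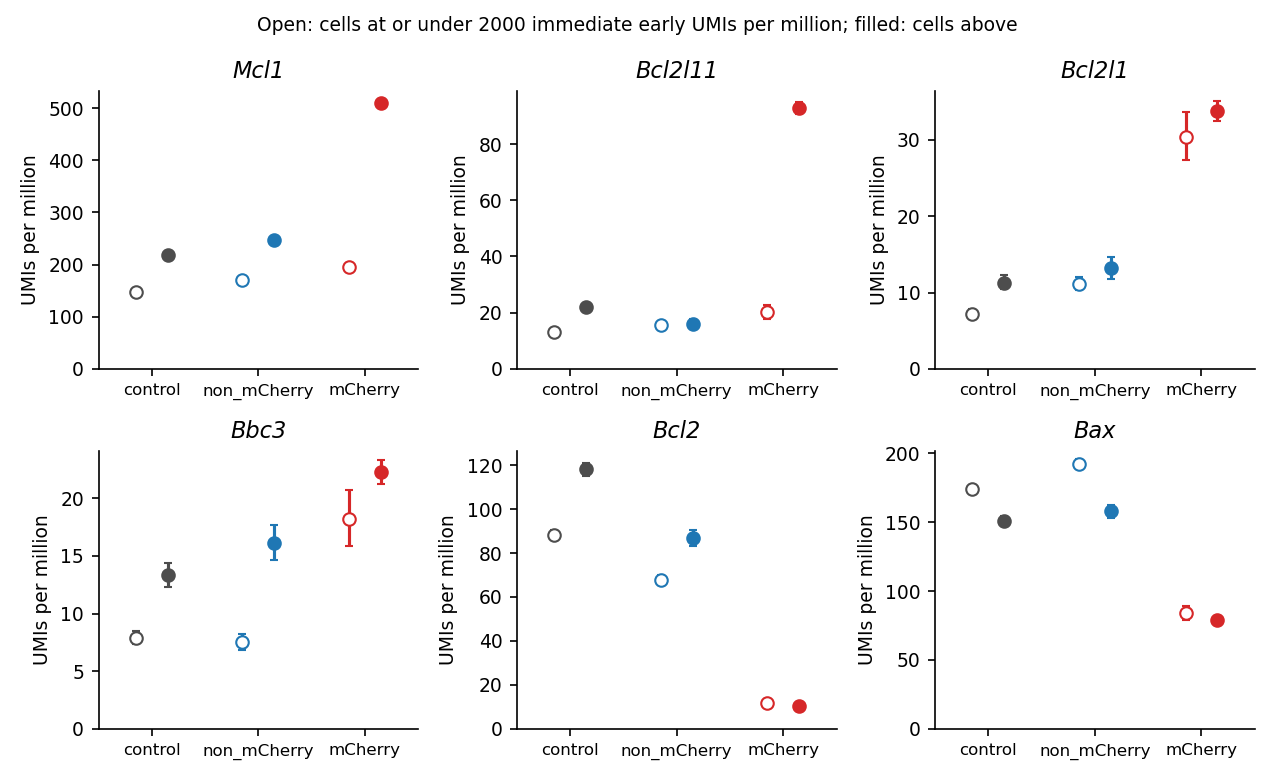
Levels of 6 members (CPM, linear axes from 0) by library, in cells at or under 2000 CPM of summed immediate early genes (open) and above it (filled), with bars for exact 95% Poisson intervals. Mcl1 and Bcl2l11 of mCherry cells stood at 195 and 20.1 CPM below the limit and at 510 and 92.8 CPM above it, while Bcl2 stayed at 11.7 and 10.5 CPM.

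The G2 and M phase list, of genes made by dividing cells, summed to 840, 919 and 383 CPM (control, non_mCherry, mCherry). Cells with no UMI of it made up 14.1%, 24.8% and 54.5%, at depths that also differed. In such cells, again chosen after seeing the data, Bcl2 was at 119, 106 and 10.2 CPM and Pmaip1 at 10.5, 12.3 and 1.23 CPM (control, non_mCherry, mCherry). Bcl2l11 was at 26.2, 26.1 and 90.6 CPM. Mcl1 was at 233, 308 and 517 CPM, Bcl2l1 at 12.2, 20.8 and 33.0 CPM, and Bbc3 at 15.8, 16.6 and 25.3 CPM, with Bax at 145, 171 and 77.3 CPM. Against control 3 members passed 2-fold higher and 2 lower, beside 10.2% and 8.37% of 9855 genes. Against non_mCherry 1 passed higher (Bcl2l11) and 4 lower (Bcl2, Bax, Pmaip1 and Bcl2a1b, which at 2.08, 5.03 and 0.279 CPM lay just past the 5 CPM line in these cells), beside 10.2% and 7.84% of 9907 genes.

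Genes around the family were counted in lists. Of the other family members, the survival gene Bcl2l2 (BCL-W) was at 4.26, 4.23 and 10.2 CPM. Bmf, a BH3-only gene linked to the cytoskeleton, was at 0.237, 1.04 and 5.94 CPM, 25.1-fold higher in mCherry than in control (17.7 to 36.6). Its control level rests on 34 UMIs. Only its mCherry level reached 5 CPM, so it could be counted as higher but not as lower. Bad, the other countable BH3-only gene, was at 58.1, 57.2 and 44.0 CPM. The effector Bok was at 2.29, 9.78 and 4.07 CPM. Hrk and Bcl2l10 had no UMI, and 0 of 4 countable distant relatives passed in either direction.

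Downstream of the mitochondrion, 3 of 18 countable genes passed 2-fold higher and 2 passed lower in mCherry over control, near the 18.3% and 11.1% of all genes. The higher 3 encode inhibitors of apoptosis: Birc2 at 28.9, 38.1 and 131 CPM, Birc3 at 11.4, 12.2 and 39.4 CPM and Xiap at 24.9, 26.0 and 51.8 CPM. The lower 2 are Cycs, cytochrome c itself, at 508, 425 and 140 CPM, and Endog, a mitochondrial nuclease, at 39.0, 33.4 and 13.5 CPM. Of 7 countable death receptor genes, 1 was higher and 0 lower, again near the share of all genes. It was the caspase-8 inhibitor Cflar at 33.2, 30.4 and 101 CPM. Casp8 itself reached 57.2, 50.4 and 114 CPM.

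Of 12 known regulators, 5 were higher and 0 lower against control, beside the same 18.3% and 11.1% of all genes. They were Foxo3 at 25.0, 21.0 and 100.2 CPM, Foxo1 at 4.59, 18.5 and 25.9 CPM, Stat5a at 32.1, 32.1 and 121 CPM, Stat5b at 31.3, 31.6 and 87.3 CPM, and the stress gene Ddit3 at 29.1, 37.2 and 70.6 CPM. FOXO factors are known to switch on Bcl2l11 and Bbc3, and STAT5 to switch on Bcl2l1 and Mcl1. Foxo1 in non_mCherry moved with its B cell progenitors, which had 96.9 CPM. Against non_mCherry the counts were 2 higher and 2 lower downstream, 2 and 0 for death receptors, and 3 of 12 and 0 for regulators, beside 17.4% higher and 10.6% lower over all genes.

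The genes whose levels were most like those of 3 members were found by Pearson's r of log2(CPM + 1) over 20 class and library strata of at least 100 cells, among 8056 genes. For Bcl2 they were Acot7 (0.90), Chn2 (0.89), Fkbp5 (0.86), Ttc7 (0.84) and Iqgap2 (0.83). For Mcl1 they were Atp6v1d (0.94), Appl1, Arhgap25, Triobp and Baz2b, and for Bcl2l11 Dip2b (0.95), mt-Co1, Socs3, Git2 and Fam134b. The strata of a library share its depth and handling, and the mCherry strata alone can set such a likeness, so these are descriptions.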

How the data were processed

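Single-cell RNA libraries of the 10x Genomics type were made from 3 sorted cell populations of 2 mice and sequenced on an Illumina NovaSeq, per the labels' protocols. The authors deposited a matrix of UMI counts for each library, as whole counts per gene and barcode. Per the submitters' processing notes Cell Ranger 6.1.2 and mm10 were used, whereas the version in the file headers is 3.1.0, a difference that could not be settled. Of the 27998 gene identifiers, 27645 matched GENCODE vM21, which gave the locations.

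The submitters' group label set each sample's group. The members and the gene lists were chosen with earlier results of these data known. Of 9782, 9751 and 11323 barcodes in control, non_mCherry and mCherry, 9066, 8056 and 10419 had at least 1000 genes, at least 2000 UMIs and at most 10% of UMIs from mitochondrial genes. Scrublet scores above 0.25 marked 209, 206 and 269 more as doublets (2.31%, 2.56% and 2.58%). Doublets of like cells cannot be found in this way. Cells were clustered with scanpy 1.11.5 (2000 variable genes, 30 principal components, 15 neighbours, Leiden resolution 1, 31 clusters), leaving out 52 family and pathway genes. Clusters were named by marker score (at least 1, with at least 3 markers 2-fold up), and that naming rule and the doublet threshold were set after seeing the data.

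Counts were summed over the cells of a library, class or cluster (classes of at least 50 cells) and divided by their total to CPM. Ratios were log2((CPM + 1)/(CPM + 1)), and folds are plain quotients of CPM. Intervals at 95% are exact, after Poisson for sums of counts and after Clopper-Pearson for shares. Tools were Python 3.11.15, numpy 2.4.6, scipy 1.17.1, pandas 2.3.3, igraph 0.11.9 and scikit-learn 1.9.0. The ratio step was tested on simulated data. All 10 members are named, up to 6 pathway genes per list past 2-fold in mCherry over control by size, and the 5 genes most like Bcl2, Mcl1 and Bcl2l11. Other pathway genes given (Trp53, Bad, Bok, Casp8, Bcl2a1a, Bcl2a1d, Hrk and Bcl2l10) were chosen after their values were seen. The alternatives tried concern the cell filters, scaling, pseudocount, level filter, depth, clustering and weighting.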

Additional observations from a re-analysis of the deposited data

How the results depend on the processing

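No paired analysis was possible because each group had 1 library, and for the same reason no library could be left out. Of the 10 members' ratios, those of Bcl2, Pmaip1 and Bax (lower in mCherry) and of Bcl2l1, Mcl1, Bcl2l11 and Bbc3 (higher) kept their direction over all cells under every alternative that was run. The direction turned in stem and multipotent progenitor-like cells of mCherry over non_mCherry at clustering resolution 0.6, where Bcl2 had a log2 ratio of 0.76 and Pmaip1 of 1.14. At that resolution the class held 0 control and 74 non_mCherry cells, with 2 UMIs of Bcl2 and 0 of Pmaip1, so these values carry no information on direction. The 4 members higher over control became 2 in stem and multipotent progenitor-like cells alone and 2 in cells low in immediate early genes. The 4 higher over non_mCherry became 1 with the mean of per-cell CPM, 1 in cells with no G2 and M phase UMI and 2 in cells low in immediate early genes. With a filter of 20 CPM, 1167 genes were higher over control, and 1115 higher and 699 lower over non_mCherry, since fewer genes were counted. For non_mCherry over control the counts of 170 higher and 38 lower became 75 and 15 at 20 CPM, 113 and 18 with a pseudocount of 5, and 259 higher with no filter. The survival to death ratio became 0.356, 0.274 and 0.167 in control, non_mCherry and mCherry without Mcl1, 0.652, 0.679 and 0.668 with members scaled to their means, and 0.919 in non_mCherry with all barcodes. The mean over classes was computed for non_mCherry over control only. The alternatives on cells with no G2 and M phase UMI, cells low in immediate early genes and cells other than B cell progenitors were chosen after seeing the data. Depth limits Pmaip1 in mCherry (90 UMIs) and Bcl2a1b (28 to 115 UMIs).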

Other observations

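Of the 7850 non_mCherry cells, 113 (1.44%) lay in the 6 clusters that mCherry cells made up, while 2 of the 8857 control cells did. The share of mCherry cells in these clusters was at least 98.6%. In the 113 cells Bcl2 was at 5.38 CPM from 3 UMIs (1.11 to 15.7), against 74.1 CPM in the other 7737 non_mCherry cells and 10.4 CPM in the mCherry cells of these clusters. On the same 3 sets of cells Mcl1 was at 583, 191 and 470 CPM, Bcl2l1 at 32.3, 11.6 and 33.3 CPM, and Bax at 100.4, 182 and 79.2 CPM. Bbc3, at 19.7 CPM from 11 UMIs (9.84 to 35.3) in the 113 cells, could not be told from either 10.1 or 21.8 CPM. Bcl2l11, at 46.6 CPM (30.4 to 68.3), lay between the 15.5 and 83.5 CPM of the others. Bak1, at 57.4 CPM (39.2 to 81.0), could not be told from either 65.8 or 48.5 CPM, and Bid, at 8.96 CPM from 5 UMIs (2.91 to 20.9), was below both 30.7 and 30.6 CPM. Pmaip1 had no UMI in the 113 cells (exact upper limit 6.61 CPM), against 12.3 and 0.930 CPM, and neither had Bcl2a1b. Runx1t1, the knock-in's partner gene, was at 7.17 CPM from 4 UMIs (1.95 to 18.4) in these cells and at 0.267 CPM in the others. The sort recorded all of them as reporter-negative, and whether they carry the recombined allele was not tested. The clusters were built without the family and pathway genes.

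Within the control library alone, these members were higher in cells above the immediate early limit than in cells at or under it: Bbc3 (13.3 against 7.89 CPM), Bcl2l11 (22.0 against 13.2 CPM), Bcl2l1 (11.3 against 7.21 CPM), Pmaip1 (14.8 against 9.64 CPM), Mcl1 (218 against 148 CPM) and Bcl2 (118 against 88.3 CPM). Bax (151 against 175 CPM), Bak1 (54.5 against 73.0 CPM) and Bid (27.9 against 36.4 CPM) were lower, and Bcl2a1b was scarce on both sides (0.834 against 0.785 CPM). Every one of these gaps was under 2-fold, and no share of all genes was set beside them. The split also follows cluster. At or under the limit lay 86.8% of the control cells of cluster 2 (granulocyte-monocyte progenitor-like) but 18.8% of those of cluster 10 (basophil and mast cell-like). In mCherry, Bcl2 was at 10.5 above and 11.7 CPM under the limit. Pmaip1 in mCherry was at 1.12 CPM above the limit and at 0.081 CPM, from 1 UMI, under it.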
